A study of Mus musculus with 8 samples.

Results

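The mitochondrial chromosome of the mouse carries 37 genes, taken here as all genes of the count table whose symbol starts with mt-. They are 13 mRNAs for subunits of the respiratory chain, 2 rRNAs and 22 tRNAs, out of 55487 genes in the table. They were followed in the left ventricles of 8 C57BL/6 mice at 12 weeks of age. The KO group held 4 mice whose genotype label is GPR116-/- (myocyte-specific), which the series title calls a loss of ADGRF5, an adhesion G protein-coupled receptor, in cardiomyocytes. The NLC group held 4 mice labelled wild-type. Males are replicates 1 and 2 and females replicates 3 and 4, in KO as in NLC. The labels name neither the driver of the deletion nor the substrain of C57BL/6. The comparison asks whether the level of mitochondrially encoded RNA differed between KO and NLC ventricles.

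Mitochondrial DNA is a small circle that is copied and transcribed inside the organelle, by a dedicated polymerase encoded in the nucleus. Both strands are transcribed into long RNAs that cover many genes, and most mRNAs and rRNAs are freed by the removal of the tRNAs that lie between them. The mRNAs encode core subunits of complexes I, III and IV and of the ATP synthase, while all other subunits of these complexes are nuclear. Heart muscle is packed with mitochondria, and their transcripts make up a large part of its RNA. Pieces of mitochondrial DNA have also been inserted into nuclear chromosomes, where annotation lists them as pseudogenes.

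Such an insertion covers part of the mouse mitochondrial genome almost letter for letter and bears on which genes the counts can measure. In GRCm38, chr1:24611535-24616188 on the minus strand holds 4654 bases that follow chrM:6390-11042, a stretch of 4653 bases. The annotation places 7 unprocessed pseudogenes there, and each is at least 99% identical to its mitochondrial counterpart. They match 8 mRNAs: 483 of the 1545 bases of mt-Co1, 681 of 684 of mt-Co2, 43 of 204 of mt-Atp8, 678 of 681 of mt-Atp6, 783 of 784 of mt-Co3, 345 of 348 of mt-Nd3, 294 of 297 of mt-Nd4l and 876 of 1378 of mt-Nd4. A further 5 tRNA genes, mt-Ts1, mt-Td, mt-Tk, mt-Tg and mt-Tr, lie between them.

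In these 8 matches 2 bases differed. The differences are shown because they are all that separates the aligned mitochondrial mRNA from the pseudogene in the reference. One is A1066T between mt-Co1 and the pseudogene Gm29216, the other is T3C between mt-Nd3 and the pseudogene Gm28438, with positions counted from the first base of the mitochondrial gene. The capitals below mark the base that differs, the mitochondrial windows are chrM:6390-6413 and chrM:9459-9481 on the plus strand, and the nuclear ones chr1:24616165-24616188 and chr1:24613097-24613119 on the minus strand.
mt-Co1: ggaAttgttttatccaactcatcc
Gm29216: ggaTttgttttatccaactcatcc
mt-Nd3: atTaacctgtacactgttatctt
Gm28438: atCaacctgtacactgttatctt

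Genes also overlap within the mitochondrial chromosome, and a read in the shared stretch belongs to both. The end of mt-Atp8, at chrM:7907-7969, is shown with the 43 bases that also open mt-Atp6 in capitals, and the end of mt-Nd4l, at chrM:10147-10173, with the 7 bases that also open mt-Nd4.
mt-Atp8: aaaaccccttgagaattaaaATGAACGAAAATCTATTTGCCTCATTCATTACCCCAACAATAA
mt-Nd4l: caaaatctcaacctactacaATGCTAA

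Among genes on opposite strands, mt-Nd5 and mt-Nd6 share 14 bases, mt-Ti and mt-Tq share 3 and mt-Co1 and mt-Ts1 share 3. The strand setting of the counting is not given in the sources used here, so reads of such partners cannot be told apart.

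Libraries held 26.6 to 39.6 M gene reads in KO and 25.3 to 28.3 M in NLC. Adgrf5, the targeted gene, lay at 203 to 240 CPM (reads scaled to library size) in KO and at 218 to 257 CPM in NLC (log2 fold change -0.05, SE 0.0754, edgeR adjusted p = 0.782). Other cells of the heart also transcribe it, so this level, taken over the whole tissue, is no check of the labels. All 8 cardiomyocyte markers were abundant, with a summed level of 71839.5 to 84749 CPM in KO and 68508 to 81158 CPM in NLC. Summed endothelial markers (5 of 5 detected in every library) were lower in KO, at 479 to 520 CPM, than in NLC, at 533 to 636 CPM. Summed fast skeletal muscle markers (6 of 8 detected in every library, Myh4 at 0 in all) were higher in KO, at 10.4 to 16.2 CPM, than in NLC, at 5.23 to 10.3 CPM. NLC replicate 4 stood apart in the atrial markers, at 6003 CPM against 360 to 1436 CPM in KO and 381 to 811 CPM in the other NLC libraries. It was also the highest for fat markers, at 81.3 CPM against 39.9 to 49.8 CPM in KO and 33.2 to 50.7 CPM in the other NLC libraries. None of these differences in markers was tested, nor was their part in the levels below. In whole tissue, fewer cells of a type and less RNA per cell cannot be told apart.

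Mitochondrially encoded genes took nearly the same share of gene reads in KO and NLC ventricles. The share was 19.6%, 20.9%, 18.3% and 17.7% in KO replicates 1 to 4, and 19.9%, 21.9%, 17.4% and 17.5% in NLC replicates 1 to 4. The groups overlapped, and in both the 2 highest values were those of the males. The mean was 19.1 ± 1.42% in KO and 19.2 ± 2.18% in NLC (SD, n = 4 each), a difference of -0.0618 percentage points. An exact two-sided permutation test over the 70 assignments of libraries gave p = 0.943, where the smallest p it can give is 0.0286. Counting error was small beside this spread, with a Wilson 95% interval of 19.55% to 19.58% for the deepest library, KO replicate 1.

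The 13 mRNAs held almost all of these reads, at 18.5 ± 1.42% of gene reads in KO and 18.5 ± 2.16% in NLC (exact p = 0.971). The 2 rRNAs held 0.619 ± 0.0867% in KO and 0.634 ± 0.0492% in NLC (exact p = 0.8286). The 22 tRNAs held 0.00672 ± 0.00118% in KO and 0.00662 ± 0.00119% in NLC (exact p = 0.914). Adjusted over the 4 shares, every p was 0.971. Within males the total share differed by -0.682 points and within females by 0.558 points, KO minus NLC, so the sign was not shared by the sexes. Leaving out 1 library at a time moved the difference between -0.662 points, without NLC replicate 3, and 0.858 points, without NLC replicate 2.

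**Figure D1:**
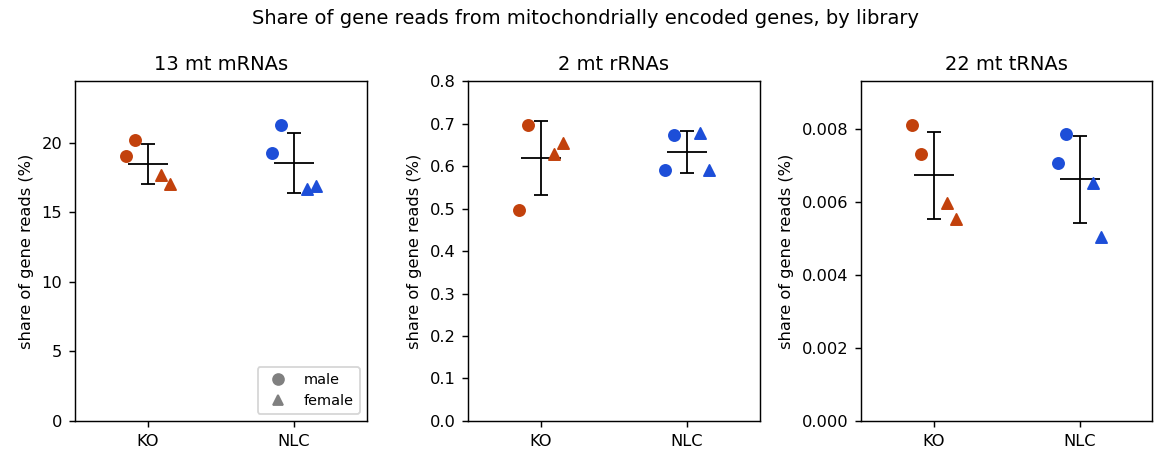
Share of gene reads (%) from the mitochondrial mRNAs, rRNAs and tRNAs in each library, for KO and NLC; circles are males, triangles females, and the black bar and whiskers give the mean and SD of 4 libraries. The genotypes overlap in all 3 panels, while for mRNAs the 4 males (19.1% to 21.2%) lie above the 4 females (16.7% to 17.7%).

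Of the 37 genes, 21 had enough reads to be tested: all 13 mRNAs, both rRNAs and the tRNAs mt-Ti, mt-Tq, mt-Tm, mt-Tw, mt-Tt and mt-Tp. None of the 21 differed between KO and NLC, where 15 of all 14695 tested genes did (0.102%; edgeR quasi-likelihood test with sex as a term, Benjamini-Hochberg adjusted p under 0.05). Their adjusted p ranged from 0.464 to 0.984. At an unadjusted p under 0.05 the count was also 0, against 11.9% of all tested genes, and DESeq2 called 0 as well. The median log2 fold change, KO over NLC, was 0.07 over the 21 genes and -0.01 over all tested genes, with 14 positive and 7 negative values. Without KO replicate 1 the median was 0.02, with 11 positive, and without NLC replicate 1 it was 0.04, with 12 positive. The 8 mRNAs that match the inserted stretch had a median of 0.36, with 7 positive. The 13 tested genes outside it had a median of 0.005, with 7 positive. For none of the 21 did the 4 KO libraries lie apart from the 4 NLC libraries, which 6.25% of all tested genes did.

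**Figure D2:**
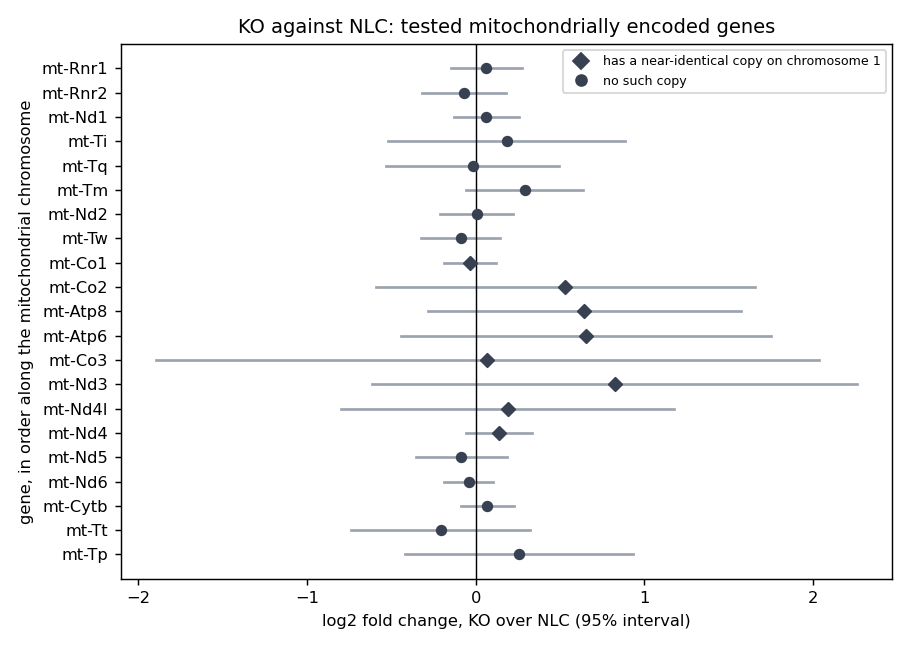
Log2 fold change of KO over NLC with its 95% interval for the 21 tested genes, in order along the mitochondrial chromosome; diamonds are genes with a near-identical copy on chromosome 1. Every interval includes 0, and those of mt-Co2, mt-Atp8, mt-Atp6, mt-Co3, mt-Nd3 and mt-Nd4l are wide.

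Levels of the genes with many reads are given first by respiratory complex. Complex I, the NADH dehydrogenase, takes 7 subunits from the mitochondrial genome, of which mt-Nd1, mt-Nd2, mt-Nd5 and mt-Nd6 lie outside the inserted stretch. mt-Nd1 (chrM:2751-3707), a membrane subunit, had 26105, 28045, 24697 and 21562 CPM in KO replicates 1 to 4, and 26549, 29296, 19281 and 21863 CPM in NLC replicates 1 to 4. The genotypes overlapped, with a log2 fold change of 0.06 for KO over NLC (SE 0.0868, edgeR adjusted p = 0.770). mt-Nd2 (chrM:3914-4951), another proton-pumping membrane subunit, had 16787, 18325, 15460.0 and 14761 CPM in KO, and 16955, 21563, 13114.5 and 14234.5 CPM in NLC. Its log2 fold change was 0.01 (SE 0.0978).

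mt-Nd5 (chrM:11742-13565), the longest mRNA of the set, had 15686, 16402, 17179.5 and 18162 CPM in KO, and 18719.9, 22111, 13958 and 17308 CPM in NLC (log2 fold change -0.09, SE 0.121). The 2 KO males lay below the 2 NLC males, while the KO females, at 17179.5 and 18162 CPM, overlapped the NLC females. mt-Nd6 (chrM:13552-14070) is the one mRNA on the light strand, opposite to the other mRNAs. It had 384, 364, 321 and 329 CPM in KO, and 405, 403, 324 and 312 CPM in NLC, with a log2 fold change of -0.04 (SE 0.0652). Its 95% interval ran from -12.0% to 7.55%, among the narrowest of the 21 genes.

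Complex III, the cytochrome bc1 complex, has a single mitochondrially encoded subunit, cytochrome b. Its gene mt-Cytb (chrM:14145-15288) had 44783, 44549.5, 35199.7 and 37439 CPM in KO, and 41043, 45612, 34793 and 33233 CPM in NLC. KO over NLC gave a log2 fold change of 0.07 with an SE of 0.0700 (edgeR adjusted p = 0.680). Complex IV, cytochrome c oxidase, reduces oxygen at a centre held by the subunit that mt-Co1 (chrM:5328-6872) encodes. mt-Co1 had the highest CPM of the set, with 77391, 75088, 68819.8 and 63437 CPM in KO, and 79036, 83115, 64833 and 65351 CPM in NLC. Its log2 fold change was -0.03 (SE 0.0697), with a 95% interval from -12.2% to 8.81%.

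The rRNAs form the core of the mitochondrial ribosome. mt-Rnr1, the small subunit rRNA at chrM:70-1024, had 1877, 2467, 2363 and 2321 CPM in KO, and 2245, 2243, 2154 and 1999 CPM in NLC (log2 fold change 0.06, SE 0.0950). mt-Rnr2, the large subunit rRNA at chrM:1094-2675, had 3322, 4473, 3821 and 4230.5 CPM in KO, and 3818, 4726, 4339 and 3735 CPM in NLC (log2 fold change -0.07, SE 0.112). KO replicate 1 had the lowest level of both rRNAs among the 8 libraries. Without it the log2 fold change of mt-Rnr2 was 0.02, still uncalled.

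Compared per length, the levels of these genes formed a steep order that was shared by the libraries. Over the 8 libraries mt-Co1 averaged 46689 ± 4834 CPM per kilobase, mt-Cytb 34599 ± 4399, mt-Nd1 25784 ± 3640.5, mt-Nd2 15799.6 ± 2571, mt-Nd4 10813 ± 2007 and mt-Nd5 9562 ± 1316 (SD). mt-Rnr2 followed at 2565 ± 291 CPM per kilobase, mt-Rnr1 at 2313 ± 203 and mt-Nd6 at 685 ± 74.4. Each of these genes was above the next in all 8 libraries, except that mt-Nd4 exceeded mt-Nd5 in 6 of 8 and mt-Rnr2 exceeded mt-Rnr1 in 7 of 8. The libraries were made for mRNA, and how that step acted on the rRNAs and on each mRNA was not measured. The order is therefore one of counted reads, not of RNA in the tissue. Of the reads from the 37 genes, mt-Co1 held 37.6%, mt-Cytb 20.6% and mt-Nd1 12.8% on average over libraries. mt-Nd4, of which 63.6% lies in the inserted stretch, reached 29681 ± 5508 CPM per kilobase when its reads were divided by the bases outside that stretch. That mean lay above those of mt-Nd1 and mt-Nd2, so the place of mt-Nd4 in the order depends on the length used. The same division gave 67923 ± 7033 CPM per kilobase for mt-Co1.

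**Figure D3:**
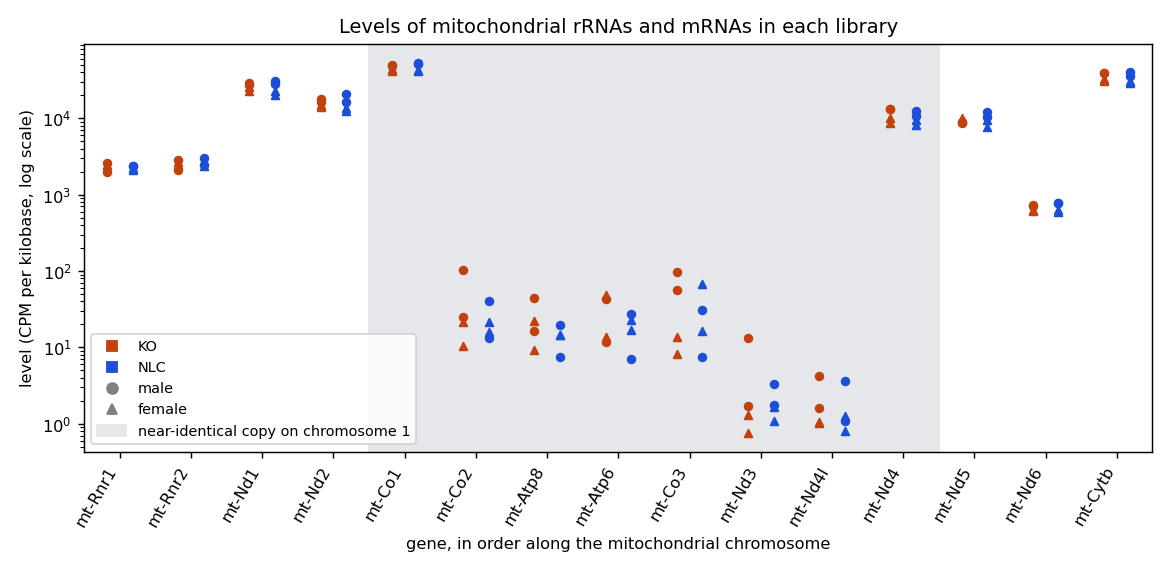
Level of the 2 rRNAs and 13 mRNAs in each library, in CPM per kilobase of gene on a log axis, in order along the mitochondrial chromosome, KO left of NLC; circles are males and triangles females. Grey marks genes with a near-identical copy on chromosome 1; of these, mt-Co2, mt-Atp8, mt-Atp6, mt-Co3, mt-Nd3 and mt-Nd4l sit far below mt-Co1, mt-Nd4 and all genes outside the grey field.

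The remaining 6 mRNAs had very few reads. mt-Co2 and mt-Co3 encode core subunits of complex IV, mt-Atp6 and mt-Atp8 subunits of the ATP synthase, and mt-Nd3 and mt-Nd4l small membrane subunits of complex I. Over the 8 libraries they averaged 37.1 CPM per kilobase for mt-Co3, 31.3 for mt-Co2, 23.8 for mt-Atp6, 18.6 for mt-Atp8, 3.09 for mt-Nd3 and 1.84 for mt-Nd4l. All 6 lie wholly between chrM:6390 and chrM:11042. Of these, 5 match an annotated pseudogene over 98.99% or more of their length, and mt-Atp8 over 21.1%. The files list 16.8% to 20.3% of all tallied reads as mapped to more than 1 place, and such reads were counted for no gene. How many of them came from these mRNAs is not known, so the counts of these 6 genes do not measure their RNA level.

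The libraries disagreed widely on these 6 genes. mt-Co2 had 69.5, 17.2, 14.7 and 7.14 CPM in KO replicates 1 to 4, and 28.04, 9.14, 14.8 and 10.9 CPM in NLC. mt-Co3 had 75.1, 44.1, 10.7 and 6.39 CPM in KO, and 24.5, 5.79, 12.9 and 53.6 CPM in NLC. mt-Atp6 had 29.1, 8.06, 32.7 and 9.32 CPM in KO, and 18.8, 4.85, 11.4 and 15.4 CPM in NLC. KO replicate 1 was the highest of the 8 for mt-Co2 and mt-Co3, and NLC replicate 4 stood apart from the other female libraries for mt-Co3.

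mt-Atp8 had 9.02, 3.39, 4.49 and 1.88 CPM in KO, and 4.05, 1.51, 3.00 and 2.97 CPM in NLC. mt-Nd3 had 4.58, 0.588, 0.456 and 0.263 CPM in KO, and 1.16, 0.612, 0.574 and 0.380 CPM in NLC. mt-Nd4l had 1.24, 0.484, 0.316 and 0.301 CPM in KO, and 1.09, 0.326, 0.371 and 0.242 CPM in NLC. KO replicate 1 was again the highest library for all 3. The log2 fold changes of the 6 genes, KO over NLC, lay between 0.07 for mt-Co3 (SE 0.884) and 0.82 for mt-Nd3 (SE 0.648). Without KO replicate 1 the values were -0.19 for mt-Co2, -0.37 for mt-Co3 and -0.49 for mt-Nd3, all uncalled.

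mt-Nd4, also in the inserted stretch, encodes a proton-pumping membrane subunit of complex I and was well covered. It had 18358, 18194.5, 12015.5 and 14064 CPM in KO, and 14739, 17343, 13131 and 11355.5 CPM in NLC. KO over NLC gave a log2 fold change of 0.14 with an SE of 0.0883 (edgeR adjusted p = 0.514), and the 95% interval spans -3.84% to 26.2%.

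The pseudogenes on chromosome 1 were also assigned reads, and KO replicate 1 stood apart there too. Whether these reads came from the nuclear copies or from mitochondrial RNA was not tested. Read counts given here are not scaled to depth, and KO replicate 1 was the deepest library. Gm10925, the copy of mt-Atp6, had 4396, 195, 145 and 112 reads in KO replicates 1 to 4, and 257, 128, 205 and 132 reads in NLC. Over the 7 pseudogenes, the summed level was 326, 94.0, 52.5 and 48.9 CPM in KO, and 111, 105, 65.0 and 47.2 CPM in NLC (exact two-sided permutation p = 0.8286). By sex the sum was 159 ± 111 CPM in males and 53.4 ± 8.06 CPM in females (SD, n = 4 each), with no overlap (exact p = 0.0286, the smallest it can give). KO replicate 1, a male, had 326 CPM, and the other males lay at 94.0 to 111 CPM, against 47.2 to 65.0 CPM in females. Gm28438, the copy of mt-Nd3, had a pattern of its own, with 1814, 1316, 496 and 561 reads in KO, and 1272, 1727, 489 and 361 reads in NLC. It held 10.5 to 115 reads for each read of mt-Nd3. Its log2 fold change was 0.02 (SE 0.177) for KO over NLC and 1.65 (SE 0.181, edgeR adjusted p = 0.00411) for male over female. The high counts of KO replicate 1 were not particular to this insertion. Gm13340, a copy of mt-Co1 on chromosome 2, had 4706, 1069, 667 and 471 reads in KO, and 1066, 520, 867 and 703 reads in NLC. Gm13341, Gm11512, Gm11410 and Gm4076, also on other chromosomes, had most reads in KO replicate 1 too, while Gm11408 and Cep295 did not.

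**Figure D4:**
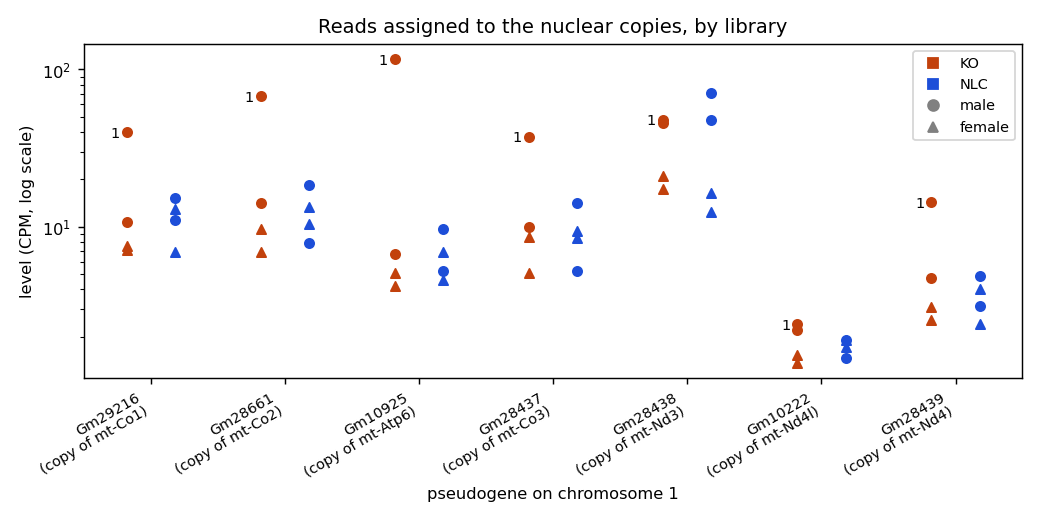
Level of the 7 pseudogenes of the insertion on chromosome 1 in each library, in CPM on a log axis, KO left of NLC, circles males, triangles females; "1" marks KO replicate 1. That library is the highest of the 8 for every pseudogene but Gm28438, which splits by sex.

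The tRNAs had few reads in these mRNA libraries. No read was assigned to 8 of the 22 in any library, namely mt-Tf, mt-Tv, mt-Tk, mt-Tg, mt-Tr, mt-Th, mt-Ts2 and mt-Tl2. A count of 0 allows up to 0.0757 to 0.118 CPM per library (3 counts) of reads that map to 1 place. For mt-Tk, mt-Tg and mt-Tr, which lie in the inserted stretch, this sets no limit on the RNA, since multiply mapped reads were not counted. Another 8, mt-Tl1, mt-Ta, mt-Tn, mt-Tc, mt-Ty, mt-Ts1, mt-Td and mt-Te, had 1 to 63 reads over all libraries and were not tested. The 4 most abundant tRNA genes and mt-Tt, the tRNA gene that a test called, are shown with the anticodon in capitals. Their places are chrM:4950-5016 for mt-Tw, chrM:3706-3774 for mt-Ti, chrM:3845-3913 for mt-Tm, chrM:3772-3842 on the minus strand for mt-Tq and chrM:15289-15355 for mt-Tt.
mt-Tw: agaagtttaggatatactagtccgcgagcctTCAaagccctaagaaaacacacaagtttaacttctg
mt-Ti: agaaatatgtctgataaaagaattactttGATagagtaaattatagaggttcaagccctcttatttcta
mt-Tm: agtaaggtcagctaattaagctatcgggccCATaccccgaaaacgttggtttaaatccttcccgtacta
mt-Tq: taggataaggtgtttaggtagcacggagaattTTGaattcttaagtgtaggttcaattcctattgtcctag
mt-Tt: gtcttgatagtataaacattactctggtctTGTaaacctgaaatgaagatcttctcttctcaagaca

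mt-Tw, the tryptophan tRNA that follows mt-Nd2 with an overlap of 2 bases, had 29.0, 32.8, 26.5 and 25.5 CPM in KO, and 36.2, 41.1, 23.5 and 23.1 CPM in NLC (log2 fold change -0.09, SE 0.106). mt-Ti, the isoleucine tRNA that follows mt-Nd1, had 28.4, 14.1, 9.90 and 8.08 CPM in KO, and 12.0, 11.7, 16.6 and 9.06 CPM in NLC (log2 fold change 0.18, SE 0.315). KO replicate 1 was the highest library for mt-Ti, and without it the log2 fold change was -0.20. mt-Tm, the methionine tRNA that precedes mt-Nd2, had 14.6, 9.51, 11.7 and 9.92 CPM in KO, and 7.50, 10.03, 9.75 and 10.2 CPM in NLC (log2 fold change 0.29, SE 0.156, edgeR adjusted p = 0.464).

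mt-Tq, the glutamine tRNA of the light strand, averaged 6.997 ± 1.64 CPM in KO and 7.09 ± 2.35 CPM in NLC (SD, n = 4 each). mt-Tp, the proline tRNA of the light strand, averaged 2.02 ± 0.482 CPM in KO and 1.71 ± 0.614 CPM in NLC. mt-Tt, the threonine tRNA that begins at the base after mt-Cytb, had 3.70, 4.01, 1.93 and 2.25 CPM in KO, and 5.81, 7.02, 1.62 and 1.38 CPM in NLC. Its genotypes overlapped (log2 fold change -0.21, SE 0.239), but in both the males lay above the females.

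The sexes differed more than the genotypes in these genes. This comparison of shares was added after the values had been seen. Mitochondrially encoded genes took 20.6 ± 1.07% of gene reads in males and 17.7 ± 0.422% in females (SD, n = 4 each), and the 4 males lay above the 4 females. The difference was 2.86 points, 2.24 within KO and 3.48 within NLC. The exact two-sided permutation p was 0.0286, the smallest it can give, and 0.0381 adjusted over the 4 shares. With libraries reassigned only within genotype, p was 0.0556, again the smallest possible. The mRNAs held 96.1% to 97.4% of the mitochondrial reads, so the total and mRNA shares among the 4 are not separate comparisons. As a share of all tallied reads, unassigned ones included, males held 14.6% to 16.8% and females 13.3% to 14.1%.

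The males stand at positions 1 to 4 of the library numbering in the sample descriptions and the females at positions 5 to 8, so sex and this order cannot be told apart. Reads mapped to more than 1 place made up 19.5 ± 0.669% of tallied reads in males and 17.4 ± 0.509% in females (exact p = 0.0286). Their part in the difference was not tested. The summed cardiomyocyte markers overlapped, at 68508 to 84137 CPM in males and 74615 to 84749 CPM in females, and no other marker list separated the sexes.

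By class, the mRNA share was 19.9 ± 0.993% in males and 17.1 ± 0.431% in females, with no overlap. The tRNA share was 0.00758 ± 0.000482% in males and 0.00576 ± 0.000626% in females, with no overlap either. The rRNA share was 0.615 ± 0.0910% in males and 0.639 ± 0.0376% in females, and there the sexes overlapped (exact p = 0.686). Within the reads of the 37 genes, the rRNAs made up 2.98 ± 0.333% in males and 3.61 ± 0.247% in females. The sexes did not overlap, and the exact two-sided permutation p was 0.0286, the smallest it can give. Adjusted over 6 such comparisons it was 0.0857. A comparison at the smallest p passes this adjustment only if several of the 6 reach it, so the adjusted test does not decide on a class difference. For KO against NLC the rRNAs made up 3.26 ± 0.505% and 3.34 ± 0.420% (exact p = 0.8286).

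Gene by gene, 19 of the 21 tested genes had a positive log2 fold change for male over female, with a median of 0.36, against -0.01 over all tested genes. The 13 tested genes outside the inserted stretch had a median of 0.32, with 12 positive. The 8 mRNAs that match it had a median of 0.63, with 7 positive. Only mt-Tt passed the threshold, at 5.14 ± 1.56 CPM in males and 1.80 ± 0.379 CPM in females (log2 fold change 1.48, SE 0.241, edgeR adjusted p = 0.0408). Among all tested genes 44 passed (0.299%), of which 32 were higher in males (0.218%). mt-Tt rests on 786 reads in all, and its adjusted p was 0.0661 to 0.153 when any of 6 libraries was left out, all but KO replicate 4 and NLC replicate 3, and 0.0540 without TMM factors. At an unadjusted p under 0.05 there were 11 of 21, against 12.8% of all tested genes. These were 6 of the 13 outside the inserted stretch and 5 of the 8 that match it. DESeq2 called 8 of the 21, mt-Tt, mt-Nd4, mt-Cytb, mt-Nd6, mt-Tw, mt-Co1, mt-Nd1 and mt-Nd2, against 1.47% of all tested genes.

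In 9 of the 21 genes all males lay above all females, as did 3.84% of all tested genes, while 6.87% separated the sexes in either direction. mt-Cytb had 43997 ± 2021 CPM in males and 35166 ± 1736 CPM in females (log2 fold change 0.32, SE 0.0701, edgeR adjusted p = 0.115). mt-Nd4 had 17159 ± 1673 CPM in males and 12641 ± 1198 CPM in females (log2 fold change 0.44, SE 0.0884, edgeR adjusted p = 0.0966). mt-Nd6, on the other strand, had 389 ± 19.0 CPM in males and 321 ± 7.14 CPM in females (log2 fold change 0.28, SE 0.0652). mt-Co1, mt-Nd1, mt-Nd2, mt-Nd3 and mt-Tw were the others besides mt-Tt, though the counts of mt-Nd3 do not measure its RNA level. mt-Nd5 overlapped, at 18229.9 ± 2893.5 CPM in males and 16652 ± 1848 CPM in females. The log2 fold changes of mt-Rnr1 and mt-Rnr2 were 0.00 (SE 0.0947) and 0.02 (SE 0.112), and their signs changed under other scalings.

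Relative to the total of the 37 genes, a scaling added for this comparison after the values had been seen, mt-Tt was still higher in males (log2 fold change 1.19, SE 0.226, edgeR adjusted p = 0.00611). mt-Rnr1 was lower in males (-0.28, SE 0.0924, edgeR adjusted p = 0.0357), with mt-Rnr2 at -0.27 (adjusted p = 0.0628). mt-Co1, mt-Nd5 and mt-Nd6 turned negative on this scale, at -0.02, -0.16 and -0.01, all uncalled. This scaling moves the median log2 fold change of all tested genes to -0.29, and 40.2% of them pass on it. So many passing genes lower the adjusted p, which cannot be set beside that under TMM scaling. The unadjusted edgeR p of mt-Tt was 0.000394 on this scale and 9.99e-05 under TMM scaling, and that of mt-Rnr1 was 0.0124 on this scale.

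**Figure D5:**
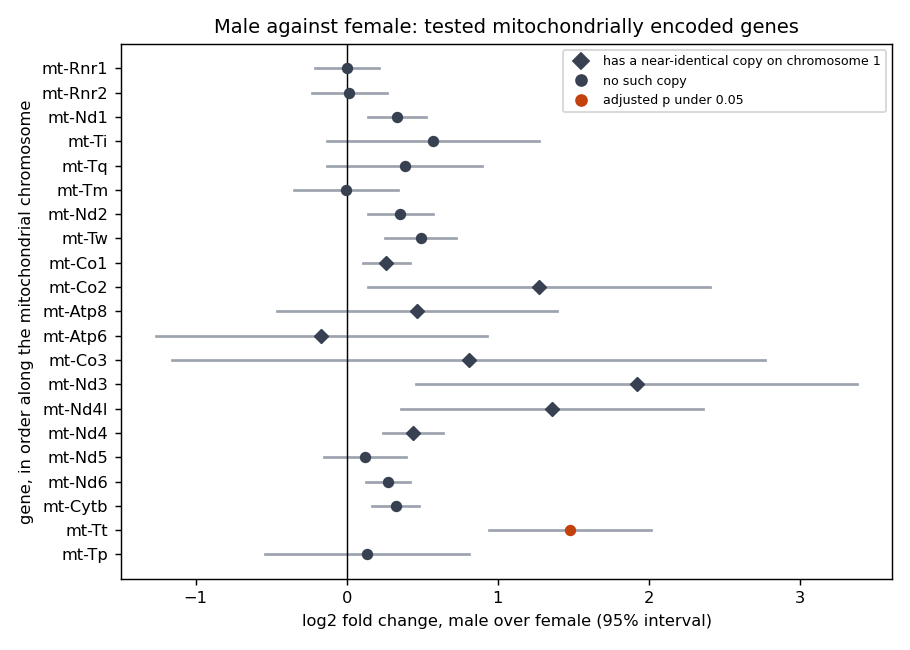
Log2 fold change of male over female with its 95% interval for the 21 tested genes, scaled by TMM factors; diamonds are genes with a near-identical copy on chromosome 1, and red is an adjusted p under 0.05. mt-Tt is the red point at 1.48, the mRNAs outside the insertion lie between 0.12 and 0.36, and both rRNAs lie near 0.

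Within males, KO against NLC gave 0 calls among the 21 genes, against 0.0408% of all tested genes, with 5 of 21 at an unadjusted p under 0.05 and 17.5% of all. Within females it gave 0 calls, as for all tested genes, with 2 of 21 at an unadjusted p under 0.05 and 5.12% of all. The test of the difference between the sexes called 0 of the 21 and 0 of all tested genes, with 6 of 21 and 7.46% of all at an unadjusted p under 0.05. DESeq2 called 0 of the 21 in each of these 3 comparisons. One of these 6 was mt-Tt, whose log2 fold change, KO over NLC, was -0.73 (SE 0.200) in males and 0.48 (SE 0.228) in females.

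Nuclear genes that copy, transcribe, process and translate the mitochondrial genome were counted in 6 lists, and the nuclear subunits of the respiratory complexes in another. Over the 7 lists 0 of 237 tested genes were called for KO against NLC by edgeR, and 0 by DESeq2, with 19 at an unadjusted p under 0.05 (8.02%, against 11.9% of all tested genes). For the nuclear respiratory subunits, 72 of 81 tested genes had a positive log2 fold change (88.9%, against 49.0% of all tested genes), with a median of 0.14, and 7 of 81 had an unadjusted p under 0.05 (8.64%). Without KO replicate 1 the count was 61 of 81 with a median of 0.06, and without NLC replicate 2 it was 69 with a median of 0.08. Ndufc1, a complex I subunit, averaged 165 ± 24.4 CPM in KO and 133 ± 8.75 CPM in NLC (log2 fold change 0.30, SE 0.0918, edgeR adjusted p = 0.298). Atp5mpl, an ATP synthase subunit, averaged 162 ± 7.24 CPM in KO and 141 ± 10.4 CPM in NLC (log2 fold change 0.21, SE 0.0739). The 82 listed genes together took 6.75%, 6.00%, 6.07% and 6.25% of nuclear gene reads in KO replicates 1 to 4, and 6.39%, 5.80%, 6.00% and 5.92% in NLC. The groups overlapped, with means of 6.27 ± 0.335% in KO and 6.03 ± 0.255% in NLC (exact two-sided permutation p = 0.286). KO replicate 1 was the highest library, and without it the KO mean was 6.11%, with a difference of 0.0841 points against 0.243 points with it.

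Of 77 tested genes for mitochondrial ribosomal proteins, 57 had a positive log2 fold change (74.0%, against 49.0% of all tested genes), with a median of 0.07. An unadjusted p under 0.05 was reached by 7 (9.09%, against 11.9%). The median was 0.04 without KO replicate 1 and 0.04 without NLC replicate 2. Mrps23 of the small ribosomal subunit averaged 170.1 ± 14.0 CPM in KO and 145 ± 5.06 CPM in NLC (log2 fold change 0.23, SE 0.0749, edgeR adjusted p = 0.320), and Mrps18b had 0.20 (SE 0.0793). Among 17 genes of mtDNA transcription and replication the median was -0.02. Polrmt, the mitochondrial RNA polymerase, averaged 48.6 ± 6.93 CPM in KO and 42.4 ± 4.59 CPM in NLC (log2 fold change 0.20, SE 0.0780). Mgme1, a nuclease of mtDNA replication, averaged 16.9 ± 0.892 CPM in KO and 19.5 ± 1.03 CPM in NLC (log2 fold change -0.21, SE 0.0716, edgeR adjusted p = 0.344).

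The 22 genes of mitochondrial RNA processing and stability had a median of 0.00. Ptcd1, known in human cells to act on leucine tRNAs and their precursors, had a log2 fold change of 0.23 (SE 0.0785) and Rexo2, an exonuclease of short RNAs, one of 0.21 (SE 0.0819). Of 17 mitochondrial aminoacyl-tRNA synthetases 4 had a positive value, with a median of -0.06, and the smallest p were those of Mars2 (-0.15, SE 0.0842) and Ears2 (-0.16, SE 0.0924). The 11 genes of rRNA modification and ribosome assembly had a median of -0.01, with Tfb1m, an rRNA methyltransferase, at -0.26 (SE 0.127) and Mpv17l2 at 0.18 (SE 0.0952). The 12 translation factors had a median of -0.03, with the initiation factor Mtif2 at -0.16 (SE 0.0867) and Taco1, which promotes translation of mt-Co1, at -0.15 (SE 0.0910). For male over female, 0 of the 237 genes were called by edgeR and 0 by DESeq2, with 14 at an unadjusted p under 0.05 (5.91%, against 12.8% of all tested genes).

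The share of gene reads from the 37 genes fell into separate ranges for males and females. A relation over the 8 libraries therefore cannot be told apart from sex, and 4 libraries per sex are too few for a test within sex. Pearson r with total gene reads was -0.00241 (exact permutation p = 0.997). With the share of nuclear respiratory subunits it was -0.0690 (exact permutation p = 0.876). With the share of multiply mapped reads it was 0.769 (exact permutation p = 0.0293, or 0.0879 adjusted over these relations). As a description of likeness, with no test, 8423 nuclear genes with a mean of at least 10 CPM were ranked. The ranking used the Pearson correlation of their log2 level, scaled on nuclear reads, with the share of the 37 genes over the 8 libraries. Sex and library order run together in these libraries. The 6 highest were Ttc7b (r = 0.984), Ube3b (r = 0.953), D17Wsu92e (r = 0.952), Inpp5k (r = 0.951), Gm28438 (r = 0.933) and Rcor3 (r = 0.933). Gm28438 is the pseudogene of mt-Nd3 shown above. Ttc7b had 86.4, 89.7, 77.9 and 77.3 CPM in KO replicates 1 to 4, and 83.8, 92.1, 75.8 and 77.4 CPM in NLC.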

How the data were processed

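The authors deposited raw read counts per gene, 1 table per library, with 55487 Ensembl identifiers and 5 summary entries. Per the labels' protocols, column-purified total RNA was made into stranded mRNA libraries. The build was GRCm38 and the tools named are STAR, HTSeq and DESeq2, per the submitters' processing notes, while tool versions and the strand setting are not given in the sources used. Summary entries stayed out of library sizes and tests; multiply mapped reads were 16.8% to 20.3% of all tallied reads. A tRNA gene's count takes in any longer RNA that covers it.

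Symbols (55141 identifiers matched), coordinates and sequences came from GENCODE M21 on GRCm38. Nuclear copies were found by 30-base words shared with 141730 other transcripts. The count model was that of edgeR 4.0.16 in R 4.3.3 (filterByExpr by genotype, TMM, quasi-likelihood test with sex as a term, Benjamini-Hochberg over 14695 genes, threshold 0.05). Contrasts within sex came from a model of 4 group means. CPM use TMM-scaled library sizes. The fits were tested on simulated counts. Shares were compared by exact two-sided permutation tests; Wilson intervals and the floor of 3 counts cover counting error only.

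All 37 genes are accounted for; in each nuclear list the 2 genes with the smallest p are named. The genes, the nuclear lists and the tests were chosen with earlier results of these data known. Alternatives used DESeq2 1.42.0, limma 3.58.1 voom, sva 3.50.0, other scalings and filters, a replicate block and each library left out. The series' design text calls the replicates biological. No pair of libraries in a group was alike within sampling noise (chi-square per degree of freedom 15.2 to 41.4). Replicate numbers did not pair the samples.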

Additional observations from a re-analysis of the deposited data

Results flagged for a closer look

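In 4 of 50 groups of 4 libraries, 1 library lay far from the other 3 by Dixon's criterion; chance alone would give about 1 in 20 groups. KO replicate 1 stood apart with 69.5 CPM for mt-Co2 and with 4.58 CPM for mt-Nd3, both genes with a near-identical copy on chromosome 1. NLC replicate 1 stood apart with 1.09 CPM for mt-Nd4l, another such gene, and with the low value of 7.50 CPM for mt-Tm.

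For 3 of the 21 tested genes both KO males lay to one side of the NLC males and both KO females to the other side of the NLC females. No share over all tested genes is given beside this count, so it is not read as a result about these genes. The counts of mt-Co3, one of them, do not measure its RNA level. The difference between the sexes in the log2 fold change of KO over NLC was 3.92 for mt-Co3, -1.21 for mt-Tt and -0.48 for mt-Tw. The edgeR test of this difference gave an adjusted p of 0.648 for each, so none passed.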

How the results depend on the processing

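For KO against NLC, 418 log2 fold changes of the 21 genes over 20 settings were set against the values reported. Of these, 415 stayed uncalled and 3 became called, all with no filter on low counts, where mt-Atp6, mt-Atp8 and mt-Co2 gave a count of 3. The sign changed in 37 uncalled cases, in 12 genes. With no filter the counts of called mitochondrially encoded genes were 12 for male against female, 7 within males, 2 within females and 4 for the difference between the sexes; over all 27953 genes they were 742, 1007, 277 and 243. The nuclear lists then gave 5 calls for KO against NLC and 17 within males. Over all genes, KO against NLC gave 15 calls, against 150 by DESeq2 and 621 with no filter; the cause was not tested. For male against female, the count of 1 became 2 at an adjusted p of 0.1, 8 by DESeq2 and 0 without TMM factors. It was 0 to 2 with 1 library left out, and 2 on the scale of the mitochondrial total, where 40.2% of all tested genes passed.

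With assignments only within genotype, the smallest possible p is 0.0556, and the differences between the sexes in the shares (2.86 points for all, 2.88 for mRNAs, 0.00181 for tRNAs) reach no threshold. Leaving out 1 library moved the tRNA difference between 0.00157 and 0.00206 points, with an exact permutation p of 0.0571 without KO replicate 1 or NLC replicate 2.

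Replicate numbers did not pair the samples: deviations of same-numbered libraries correlated at 0.292, 0.114, -0.214 and 0.0917. With the replicate block 0 of the 21 genes and 0 of all genes were called, and exact sign flips over the 4 pairs gave p = 0.875 for the difference in total share of -0.0618 points. Depth limits mt-Nd3, mt-Nd4l and the tRNAs; how many uncounted reads came from genes of the inserted stretch was not measured.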
